A study of Mus musculus with 10 samples.

Results

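The genes described here are 30 genes of inhibitory signalling by GABA and glycine, covering GABA-A, GABA-B and glycine receptor subunits, GABA synthesis, vesicular loading, uptake and breakdown, postsynaptic scaffolds and glycine uptake. They were taken from the deposited table by gene symbol, which found all 30 among its 25050 genes, and all 30 had enough counts to be tested. The comparison set 5 brains of Abcc5-/- mice against 5 brains of Abcc5+/+ mice, on an FVB/NJ background in both groups, with each tissue labelled as whole brain. The labels give neither age nor treatment, and the mice were killed with CO2. ABCC5 is a transporter that exports organic anions, and the study's title concerns its transport of glutamate conjugates and analogs.

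GABA is made from glutamate by a pair of glutamate decarboxylases, packed into vesicles by a transporter that also carries glycine, and cleared by sodium-coupled transporters of neurons and glia. GABA-A receptors are chloride channels built from several subunits, whose mix sets where the receptor sits and how it gates, whereas GABA-B receptors are G protein-coupled and act as a pair of different subunits. Glycine receptors are chloride channels of the same family and are best known for inhibition in the spinal cord and brainstem.

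Total counts ran from 7731294 to 23588335 per library, and 3 libraries (knockout replicates 2 and 4 and wildtype replicate 1) had at least 19795743, against at most 11479995 in the other 7. Abcc5 itself, the check of the labels, had 211 to 226 CPM (counts scaled to the size of the library) in knockout brains, against 299 to 326 CPM in wildtype brains (log2 fold change -0.51, edgeR adjusted p 6.35e-06). Its remaining reads cannot be placed on exons from 1 count per gene. Knockout replicate 3 stood apart. Of 21 genes listed as markers of cerebellar granule and Purkinje cells, all 21 were lower in it than in every other library, none was at 0, and their summed level was 259 CPM, against 1604 to 1840 CPM in the other knockouts and 1529 to 1638 CPM in wildtype brains. Some marker genes of the hindbrain, the Hox genes, were also almost missing from it, with 3 of the 5 tested at 0 and a summed level of 0.264 CPM. These 5 were picked after values were seen. Of the 12 tested genes of the whole hindbrain list, 7 were below all 9 other libraries there and the rest were not. Log2 fold changes of the genes in which this library was lowest or highest are given with and without it.

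None of the 30 genes differed between knockout and wildtype brains at an adjusted p under 0.05, in the quasi-likelihood test of edgeR, with p-values adjusted by Benjamini and Hochberg across the 14526 genes tested. Over all tested genes 1.18% passed, and without knockout replicate 3 the count for the 30 genes was again 0, where 2.31% of 14747 genes passed. At an unadjusted p under 0.05 there were 2 of 30 genes, Gabrq higher and Gad1 lower, where 14.8% of all tested genes reached that level, 6.74% higher and 8.03% lower. Without knockout replicate 3 there were 2, Gad1 and Gad2, both lower, where 17.9% of all tested genes reached it and 9.2% were lower. In no gene of the 30 were the knockout and wildtype libraries fully apart, and over all tested genes this held for 4.19%, or 6.67% without knockout replicate 3, where it again held for none of the 30. The 30 log2 fold changes ran from -0.30 for Gabra6 to 0.20 for Glra2, with 15 above and 15 below 0, and their median was -0.0026, beside 0.0042 for all tested genes. The Wald test of DESeq2 and limma-voom also called 0 of the 30. A p that misses the threshold does not show equal levels, so 95% intervals are given: they lay inside a 1.25-fold change in either direction for 22 of the 30 genes, and for 26 without knockout replicate 3.

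**Figure D1:**
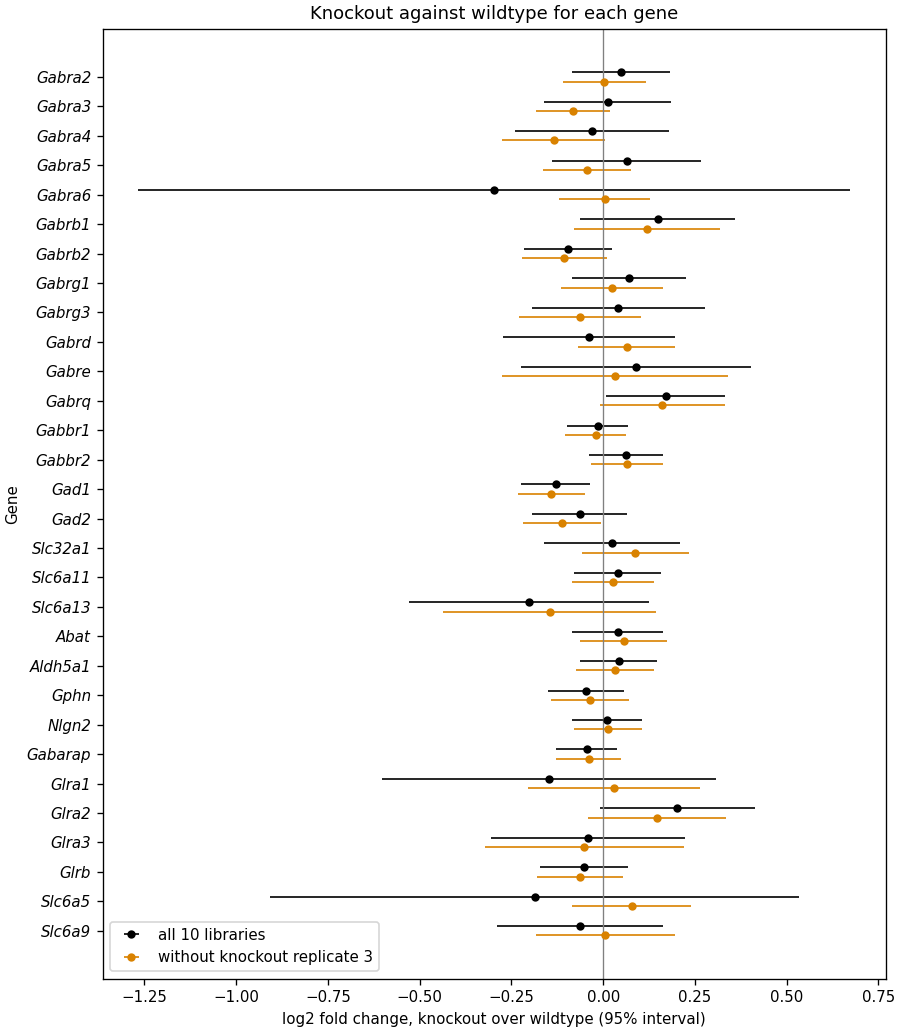
Log2 fold change, knockout over wildtype, for each of the 30 genes with its 95% interval, from all 10 libraries (black) and without knockout replicate 3 (orange). The widest intervals in black belong to Gabra6, Slc6a5 and Glra1, and they narrow once that library is left out.

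The alpha subunits form the GABA site together with a beta subunit, and alpha 6 is the one known from cerebellar granule cells. Gabra6 (ENSMUSG00000020428, chromosome 11, 42119939 to 42134574 in the deposited coordinates, whose build is not named) had 181, 151, 1.58, 168 and 158 CPM in knockout replicates 1 to 5, against 151, 150.0, 172, 176 and 169.8 CPM in wildtype replicates 1 to 5. A single knockout library was nearly without the transcript, while 3 of the others lay within the wildtype range and replicate 1 above it. Its 12 reads in knockout replicate 3 (95% exact Poisson interval 6.20 to 21.0, counting error only) came to 0.973% of the median of the other knockouts. Over all libraries the log2 fold change was -0.30 (SE 0.46, 95% interval -1.27 to 0.67, edgeR adjusted p 0.817), and limma-voom put it at -1.09. Without that library it was 0.0043 (SE 0.059, 95% interval -0.12 to 0.13, edgeR adjusted p 0.983), from 164 ± 13.0 CPM in 4 knockouts and 164 ± 12.3 CPM in 5 wildtypes (SD). In RNA from whole tissue, fewer granule cells and less transcript per cell cannot be told apart. The cerebellar markers moved with that library, and in the other 4 knockouts 10 of the 21 were higher than in wildtype at an unadjusted p under 0.05 (8.69% of all tested genes) and 2 at an adjusted p under 0.05 (0.631% of all tested genes). The part of tissue make-up in the level of Gabra6 was not tested.

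The sequence around the start of Gabra6 is shown because it is the member that separates knockout replicate 3 most sharply from the other libraries, and that of Slc6a5, described below, because it was the next lowest there. Both are 300 bases from RefSeq on GRCm38.p6, 5′ to 3′ on the gene's own strand, with 250 bases before and 50 after the start. Capitals mark TTGGC or its reverse complement GCCAA, the half-site of the nuclear factor I family, which regulates Gabra6 in maturing granule cells.
Gabra6, minus strand of chr11:42321023-42321322: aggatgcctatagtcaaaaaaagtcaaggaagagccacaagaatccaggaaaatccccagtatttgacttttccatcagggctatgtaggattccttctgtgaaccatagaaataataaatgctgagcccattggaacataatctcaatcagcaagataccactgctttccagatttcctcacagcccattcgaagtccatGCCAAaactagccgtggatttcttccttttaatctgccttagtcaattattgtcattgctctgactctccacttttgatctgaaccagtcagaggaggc
Slc6a5, plus strand of chr7:49910049-49910348: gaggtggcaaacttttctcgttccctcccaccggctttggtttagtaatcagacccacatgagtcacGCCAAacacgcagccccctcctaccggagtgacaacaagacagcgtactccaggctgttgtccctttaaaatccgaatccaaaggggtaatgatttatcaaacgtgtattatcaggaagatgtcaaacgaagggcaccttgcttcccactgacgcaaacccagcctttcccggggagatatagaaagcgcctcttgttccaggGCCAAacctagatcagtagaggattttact
The half-site begins 49 bases before the start of Gabra6, and Slc6a5 holds it at 183 bases before and 20 bases after its start. On either strand it occurs in 46.7% of all 32851 promoters of this length and in 16 of 36 promoters of the 27 members that the table lists, so its presence is a description of these letters.

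The other 4 alpha subunits behaved differently from Gabra6 in knockout replicate 3, where each was above all 9 other libraries. Gabra3, an X-linked subunit, had 123, 125, 168, 119 and 124 CPM in knockout replicates 1 to 5, against 119, 130.4, 138, 129 and 136 CPM in wildtype replicates 1 to 5. Apart from the library at 168 CPM, the groups overlapped and the knockouts lay in the lower part of the wildtype range. Its log2 fold change was 0.012 (SE 0.081, edgeR adjusted p 0.97), and -0.082 without knockout replicate 3 (SE 0.048, edgeR adjusted p 0.384). Gabra4, which pairs with delta at sites outside the synapse in the forebrain, averaged 108 ± 19.4 CPM in knockout and 109.8 ± 9.80 CPM in wildtype brains (SD, n = 5 each). Gabra5, a subunit typical of hippocampal neurons, averaged 45.3 ± 8.51 CPM in knockout and 42.9 ± 2.33 CPM in wildtype brains, and Gabra2, a subunit of forebrain synapses, averaged 77.8 ± 7.80 CPM in knockout and 75.2 ± 3.17 CPM in wildtype brains. Relative to the median of the other knockouts, knockout replicate 3 was at 1.36 times in Gabra4, 1.46 times in Gabra5 and 1.21 times in Gabra2. For Gabra4 the log2 fold change was -0.031 (edgeR adjusted p 0.93), and -0.14 without that library (edgeR adjusted p 0.296). That of Gabra5 was 0.064 (edgeR adjusted p 0.812), and on the other side of 0, at -0.044, without it (edgeR adjusted p 0.734). That of Gabra2 was 0.049 (edgeR adjusted p 0.769), and 0.0024 without it (edgeR adjusted p 0.99).

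The delta subunit replaces gamma in receptors outside the synapse and is made by granule cells of the cerebellum and by forebrain neurons. Gabrd had 90.0, 86.0, 50.8, 77.9 and 73.2 CPM in knockout replicates 1 to 5, against 83.7, 73.7, 69.9, 81.8 and 80.9 CPM in wildtype replicates 1 to 5. Knockout replicate 3 was again the lowest of all 10, but it kept 62.0% of the median of the other knockouts, a far larger share than for Gabra6. The log2 fold change was -0.038 (SE 0.11, edgeR adjusted p 0.919), and 0.064 (SE 0.063, 95% interval -0.068 to 0.20, edgeR adjusted p 0.627) without that library. The 4 other knockouts averaged 81.8 ± 7.59 CPM (SD, n = 4).

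Among the remaining GABA-A subunits, beta 2 had the most reads, and theta had the only unadjusted p under 0.05. Gabrb2 had 467, 446, 461, 410.3 and 441 CPM in knockout replicates 1 to 5, against 419, 466, 523, 474 and 496 CPM in wildtype replicates 1 to 5. The lowest level was in a knockout and the highest in a wildtype, and the groups overlapped between 419 and 467 CPM (log2 fold change -0.095, SE 0.056, edgeR adjusted p 0.45). Gabrq, which encodes the theta subunit of hypothalamic and monoaminergic neurons, had 12.04, 13.9, 14.2, 13.4 and 14.3 CPM in knockout replicates 1 to 5, against 12.2, 10.8, 13.2, 12.5 and 11.8 CPM in wildtype replicates 1 to 5. In 4 of 5 knockouts the level was above every wildtype library. The log2 fold change of 0.17 (SE 0.076) had an unadjusted p of 0.0402 and an edgeR adjusted p of 0.314, and across all settings tried the adjusted p ran from 0.248 to 0.571. Taken apart by depth, the log2 difference was 0.17 in the 3 deeper libraries and 0.16 in the 7 shallower ones. The deeper value rests on wildtype replicate 1 alone, beside knockout replicates 2 and 4, so the likeness of these values is no replication. A list of 23 hypothalamic and thalamic markers, of which 19 were tested, had a summed level of 661 to 703 CPM in the knockouts other than replicate 3, of 597 CPM in that replicate, and of 638 to 665 CPM in wildtype brains. The lower sum in that replicate did not hold for most of the list, as 10 of the 19 were above all 9 other libraries there and 2 below. Over all tested genes 19.4% were above and 19.2% below. Of the 19, 5 genes were higher in knockout brains at an unadjusted p under 0.05, where 6.74% of all tested genes were, and 1 of them, the hormone gene Avp, passed over all genes (edgeR adjusted p 0.0233), where 0.213% of all tested genes did so in that direction. Their part in the level of Gabrq was not tested.

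The epsilon, beta 1, gamma 1 and gamma 3 subunits had log2 fold changes between 0.041 and 0.15 over all libraries, and between -0.063 and 0.12 without knockout replicate 3. Gabrb1 averaged 45.6 ± 3.85 CPM in knockout and 41.3 ± 6.43 CPM in wildtype brains, with wildtype replicate 1 the lowest of all at 31.2 CPM. Gabrg1 averaged 41.6 ± 4.28 CPM in knockout and 39.3 ± 2.35 CPM in wildtype brains, and Gabrg3 36.3 ± 7.53 CPM in knockout and 35.0 ± 2.81 CPM in wildtype brains. Gabre, with few reads, averaged 3.55 ± 0.811 CPM in knockout and 3.40 ± 0.266 CPM in wildtype brains (SD, n = 5 each). In all 4 genes knockout replicate 3 was the highest library. Without it, the log2 fold change of Gabrg3 was -0.063, against 0.041 with it, that of Gabrg1 0.024, against 0.071, that of Gabre 0.033, against 0.090, and that of Gabrb1 0.12, against 0.15. The edgeR adjusted p of these 4 genes ran from 0.511 to 0.911 with that library and from 0.53 to 0.934 without it. Gabra4 and Gabrb1 overlap on opposite strands, and as the sources do not state whether counting used strand, reads from the overlap cannot be assigned to either. The same limit holds for Aldh5a1, Gabra5, Glra1, Gphn, Slc32a1 and Slc6a9, which overlap other annotated genes on the opposite strand.

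Both subunits of the GABA-B receptor had high counts, and their 95% intervals lay inside a 1.25-fold change. Gabbr1, the subunit that binds GABA, had 791, 817, 800.5, 788 and 728 CPM in knockout replicates 1 to 5, against 826, 781, 784, 791 and 786 CPM in wildtype replicates 1 to 5. Its log2 fold change was -0.015, with a 95% interval of -0.10 to 0.069 (edgeR adjusted p 0.907). Gabbr2, the subunit that couples to the G protein, had 360.3, 389, 355, 341 and 326 CPM in knockout replicates 1 to 5, against 345, 338, 331, 334 and 349 CPM in wildtype replicates 1 to 5. The knockouts spread on both sides of the narrow wildtype range (log2 fold change 0.063, 95% interval -0.037 to 0.16, edgeR adjusted p 0.565). Knockout replicate 5 was the lowest library in both genes, and knockout replicate 3 lay within the range of the others.

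Of all 30 genes, Gad1 had the smallest p-value. It encodes the larger glutamate decarboxylase, which makes most of the GABA in the brain. Gad1 (ENSMUSG00000070880, chromosome 2, 70391129 to 70440071 in the deposited coordinates) had 463, 443, 494, 466 and 517 CPM in knockout replicates 1 to 5, against 529, 531, 517, 518 and 509 CPM in wildtype replicates 1 to 5. In 4 of 5 knockouts the level was below every wildtype library, and knockout replicate 5 lay inside the wildtype range. The means were 477 ± 28.9 CPM in knockout and 521 ± 8.85 CPM in wildtype brains (SD, n = 5 each), a difference of -8.47%. The log2 fold change of -0.13 (SE 0.044, 95% interval -0.22 to -0.035) had an unadjusted p of 0.0104 and an edgeR adjusted p of 0.184, which does not pass. Without knockout replicate 3 it was -0.14 (SE 0.043, edgeR adjusted p 0.094). Across all settings tried the adjusted p ran from 0.0821, without knockout replicate 5, to 0.517 in the 7 shallower libraries. By depth, the log2 difference was -0.22 in the 3 deeper libraries and -0.079 in the 7 shallower ones. The deeper value sets knockout replicates 2 and 4 against wildtype replicate 1 alone, so it carries no measure of wildtype spread.

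The genes Dlx1, Dlx2, Dlx5, Dlx6, Sp8 and Sp9, transcription factor genes of forebrain inhibitory neurons and of the neuroblasts that supply the olfactory bulb, are set beside Gad1. They were picked from the longer list after their values were seen, and carry no test as a group. Their summed level was 38.2, 40.5, 76.0, 54.0 and 65.1 CPM in knockout replicates 1 to 5, against 71.5, 66.6, 59.0, 58.7 and 69.9 CPM in wildtype replicates 1 to 5. The knockouts with the lowest sums, replicates 1, 2 and 4, were also the 3 with the lowest Gad1, while replicates 3 and 5 were higher in both. The order did not hold throughout, as knockout replicate 3 had the highest sum but less Gad1 than knockout replicate 5. Among wildtype brains the lowest Gad1, 509 CPM in replicate 5, went with a sum of 69.9 CPM, above those of replicates 3 and 4. None of the 6 passed over all genes, and for Dlx1 the log2 fold change was -0.32 (edgeR adjusted p 0.386), or -0.45 without knockout replicate 3 (edgeR adjusted p 0.0743). The whole list of 26 forebrain inhibitory markers, of which 25 were tested, had a summed level of 1677 to 1798 CPM in the knockouts other than replicate 3, of 1387 CPM in that replicate and of 1684 to 1736 CPM in wildtype brains. None of its genes passed over all genes, with 3 higher and 1 lower at an unadjusted p under 0.05, where 6.74% of all tested genes were higher and 8.03% lower. Without knockout replicate 3, 4 were higher and 7 lower at that level, where 8.69% of all tested genes were higher and 9.2% lower. All 6 picked genes had negative log2 fold changes, but the 25 were mixed. Among the 25, 9 were positive and 16 negative, or 12 and 13 without knockout replicate 3. In that replicate 12 of the 25 were above all 9 other libraries and 7 below, although the sum was lower there. The part of these cells in the level of Gad1 was not tested.

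**Figure D2:**
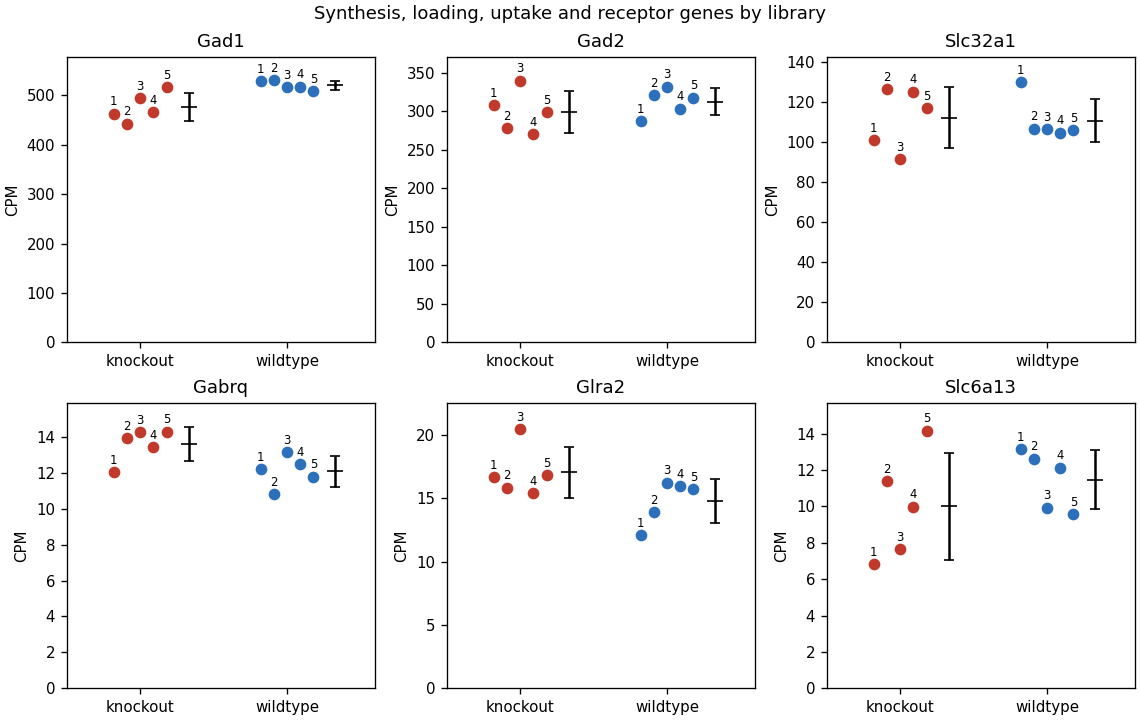
CPM in each library (numbered by replicate) for 6 genes, with the mean and SD of each group in black (n = 5 each). For Gad1, 4 of 5 knockouts lie below all wildtypes, and for Gabrq 4 of 5 lie above, while the groups overlap in every panel.

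Gad2, the smaller decarboxylase, found at nerve endings, averaged 299 ± 27.3 CPM in knockout and 312 ± 17.4 CPM in wildtype brains (SD, n = 5 each). Its log2 fold change was -0.064 (edgeR adjusted p 0.668). Without knockout replicate 3, its highest library, the value was -0.11 (95% interval -0.22 to -0.007, unadjusted p 0.0379, edgeR adjusted p 0.247). The 3 deeper libraries were the lowest 3 of all 10 in Gad2, and the highest 3 in Slc32a1, which encodes the vesicular transporter of GABA and glycine. Slc32a1 had 101, 127, 91.4, 125 and 117 CPM in knockout replicates 1 to 5, against 130.0, 107, 107, 105 and 106 CPM in wildtype replicates 1 to 5. Knockout replicates 2 and 4 and wildtype replicate 1 were the high ones, the groups overlapped, and the log2 fold change was 0.024 (edgeR adjusted p 0.942), or 0.088 without knockout replicate 3 (edgeR adjusted p 0.532).

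Slc6a11, Abat and Aldh5a1, of GABA uptake and breakdown, had log2 fold changes of 0.040 to 0.043. Slc6a11, which encodes the astrocyte GABA transporter GAT3, had 318, 321, 358, 379 and 345 CPM in knockout replicates 1 to 5, against 366, 331, 316, 340.0 and 320.0 CPM in wildtype replicates 1 to 5. The groups covered nearly the same range (log2 fold change 0.040, 95% interval -0.079 to 0.16, edgeR adjusted p 0.795). All 18 astrocyte markers were tested, with a summed level of 6983 to 7644 CPM in knockout and 6972 to 7317 CPM in wildtype brains, and none passed over all genes. At an unadjusted p under 0.05 none was higher and 1 lower, where 6.74% of all tested genes were higher and 8.03% lower. Without knockout replicate 3 there were 5 of the 18 higher and 1 lower, where 8.69% of all tested genes were higher and 9.2% lower. In knockout replicate 3, 9 of the 18 were below all 9 other libraries, where 19.2% of all tested genes were. The 1 above was Slc1a2, at 3042 CPM in that library against 2060 to 2446 CPM in the others. The sum of that library, 7152 CPM, therefore does not show unchanged markers there. The part of astrocytes in the level of Slc6a11 was not tested. Abat, the transaminase that degrades GABA, averaged 196 ± 17.4 CPM in knockout and 190.0 ± 9.69 CPM in wildtype brains, and Aldh5a1, which oxidises the resulting semialdehyde, 143 ± 9.44 CPM in knockout and 139 ± 4.52 CPM in wildtype brains (SD, n = 5 each). Knockout replicate 5 was the highest library in both.

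Slc6a13 encodes GAT2, a GABA and taurine transporter of the meninges and vessels, and its libraries spread widely in knockout brains. It had 6.83, 11.4, 7.65, 10.00 and 14.2 CPM in knockout replicates 1 to 5, against 13.1, 12.6, 9.93, 12.1 and 9.57 CPM in wildtype replicates 1 to 5. The highest and the lowest level were both in knockout brains (log2 fold change -0.20, SE 0.15, edgeR adjusted p 0.572). A list of 21 meningeal and fibroblast markers, of which 20 were tested, had summed levels of 715, 934, 812, 851 and 942 CPM in knockout replicates 1 to 5, against 952 to 1037 CPM in wildtype brains. All 20 had negative log2 fold changes, 8 of them at an unadjusted p under 0.05, where 8.03% of all tested genes were lower, and none passed over all genes, while without knockout replicate 3 there was 1 that passed, lower in knockout, where 1.68% of all tested genes did. Knockout replicate 1 was lowest and knockout replicate 5 highest among the knockouts both in this sum and in Slc6a13. The summed level of 12 choroid plexus markers was 578 to 701 CPM in knockout and 601 to 707 CPM in wildtype brains. Their part in the level of Slc6a13 was not tested.

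The 3 postsynaptic scaffold genes had log2 fold changes near 0. Nlgn2, a neuroligin of inhibitory synapses, had 291, 312, 296, 300.1 and 289 CPM in knockout replicates 1 to 5, against 323, 289.6, 280.1, 293 and 291 CPM in wildtype replicates 1 to 5. Gabarap, which binds GABA-A receptors and acts in their transport, had 93.2, 99.2, 94.7, 97.4 and 92.5 CPM in knockout replicates 1 to 5, against 98.7, 101, 95.9, 98.2 and 99.2 CPM in wildtype replicates 1 to 5. The groups overlapped in both genes, although 3 of 5 knockouts were below every wildtype library in Gabarap. Gphn, the gephyrin scaffold that anchors both GABA-A and glycine receptors, averaged 85.6 ± 4.52 CPM in knockout and 88.5 ± 4.06 CPM in wildtype brains (SD, n = 5 each). The log2 fold change was 0.010 for Nlgn2 (edgeR adjusted p 0.952), -0.045 for Gabarap (edgeR adjusted p 0.633) and -0.047 for Gphn (edgeR adjusted p 0.695).

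Glycine signalling genes of the hindbrain followed the same library as Gabra6. Slc6a5 encodes GlyT2, the transporter that defines glycinergic neurons, and its start region is printed above. It had 53.5, 73.3, 4.62, 79.2 and 70.9 CPM in knockout replicates 1 to 5, against 67.6, 63.7, 63.6, 68.5 and 68.6 CPM in wildtype replicates 1 to 5. Knockout replicate 3 held 35 reads (95% exact Poisson interval 24.4 to 48.7), or 6.40% of the median of the other knockouts. The wildtype libraries lay close together, while 2 knockouts were below all of them and 3 above. The log2 fold change was -0.19 (SE 0.34, edgeR adjusted p 0.85), and 0.078 without knockout replicate 3 (SE 0.078, edgeR adjusted p 0.632).

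Glra1, the alpha 1 glycine receptor subunit of the adult brainstem and spinal cord, had 12.6, 20.5, 5.80, 23.2 and 19.5 CPM in knockout replicates 1 to 5, against 18.4, 19.8, 18.1, 19.9 and 20.5 CPM in wildtype replicates 1 to 5. Knockout replicate 3 was at 29.0% of the median of the other knockouts, and knockout replicate 1 was the next lowest library. The log2 fold change was -0.15 (SE 0.21, edgeR adjusted p 0.803), and 0.030 without knockout replicate 3 (SE 0.11, edgeR adjusted p 0.92). The 5 tested Hox genes, a subset taken from the hindbrain list after values were seen, summed to 5.33, 13.0, 0.264, 14.5 and 11.7 CPM in knockout replicates 1 to 5, against 9.26, 10.4, 8.52, 10.3 and 13.8 CPM in wildtype replicates 1 to 5. In Slc6a5, Glra1 and the Hox sum alike, knockout replicate 3 was lowest, knockout replicate 1 next, and knockout replicate 4 highest of the 10 libraries. Of the whole list of 26 brainstem and hindbrain markers, 12 were tested, 4 were at 0 in knockout replicate 3, and none passed over all genes. The list summed to 44.4 to 57.7 CPM in the other knockouts, to 35.0 CPM in that replicate, and to 43.3 to 50.9 CPM in wildtype brains. Not every hindbrain gene was missing there, since Tph2, which makes serotonin in raphe neurons, had 12.4 CPM in that library, against 10.02 to 13.8 CPM in wildtype brains. Slc6a4, Dbh and Slc6a2 also lay within the wildtype range there, at 8.44, 2.64 and 2.64 CPM, and Chat lay above it at 7.12 CPM. Of the 12 tested, 7 were below all 9 other libraries there. The part of hindbrain tissue in these levels was not tested.

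**Figure D3:**
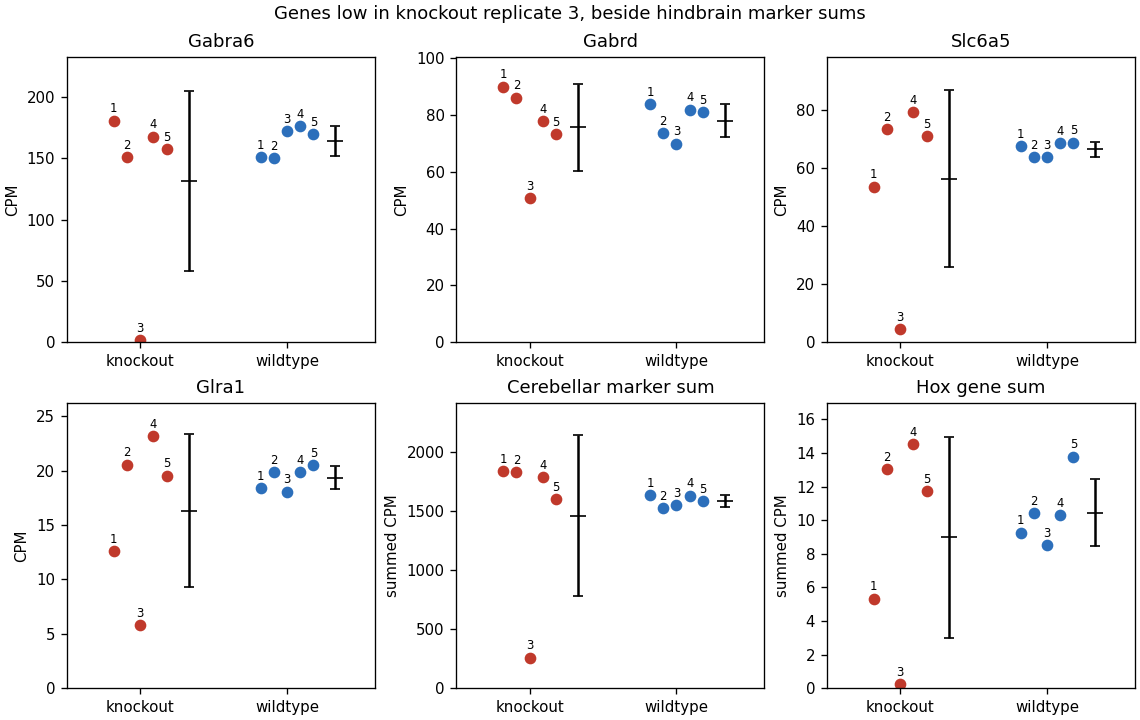
CPM in each library (numbered by replicate) for 4 genes and the summed CPM of 21 cerebellar markers and 5 Hox genes, with the mean and SD of each group in black (n = 5 each). Knockout replicate 3 is the lowest point in every panel, while knockout replicate 1 is low in Slc6a5, Glra1 and the Hox sum but not in Gabra6, Gabrd or the cerebellar sum.

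None of the other glycine genes was lowest in that library. Glrb, the beta subunit that binds gephyrin, had 257, 234, 243, 228 and 215 CPM in knockout replicates 1 to 5, against 219.6, 239, 263, 249.5 and 251 CPM in wildtype replicates 1 to 5. The groups overlapped throughout (log2 fold change -0.053, SE 0.056, edgeR adjusted p 0.709). Glra2, the alpha subunit that prevails before birth, averaged 17.0 ± 1.99 CPM in knockout and 14.8 ± 1.77 CPM in wildtype brains (SD, n = 5 each), with 3 knockouts above every wildtype library. Its log2 fold change of 0.20 was the highest of the 30 (SE 0.099, unadjusted p 0.0582, edgeR adjusted p 0.359), and it was 0.15 without knockout replicate 3. With the depth class of the libraries as a term it was 0.27 (edgeR adjusted p 0.101). Glra3, a rarer alpha subunit, averaged 6.14 ± 0.700 CPM in knockout and 6.50 ± 0.912 CPM in wildtype brains. Slc6a9, which encodes the glial glycine transporter GlyT1, had 51.4, 60.6, 42.5, 65.2 and 41.8 CPM in knockout replicates 1 to 5, against 61.5, 54.3, 54.2, 55.1 and 52.3 CPM in wildtype replicates 1 to 5. The 3 deeper libraries were the highest 3 (log2 fold change -0.062, SE 0.11, edgeR adjusted p 0.843).

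Set out by library, the 30 genes divided in knockout replicate 3 into 5 that were below all 9 other libraries and 10 that were above them. Over all tested genes the shares were 19.2% below and 19.4% above. The 5 below were Gabra6, Gabrd, Slc32a1, Glra1 and Slc6a5, and the 10 above were Gabra2, Gabra3, Gabra4, Gabra5, Gabrb1, Gabrg1, Gabrg3, Gabre, Gad2 and Glra2. This library was known to stand apart, so the counts describe it and carry no test. Neighbours on a chromosome did not always go together. All 4 members of the cluster on chromosome 5 (Gabrg1, Gabra2, Gabra4 and Gabrb1, 71142286 to 72529628 in the deposited coordinates) were above, as were both on chromosome 7 (Gabrg3 and Gabra5). On chromosome 11, Gabra6 was nearly absent while its neighbour Gabrb2 lay within the range of the others at 461 CPM, and on the X chromosome Gabre and Gabra3 were above and Gabrq was within.

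**Figure D4:**
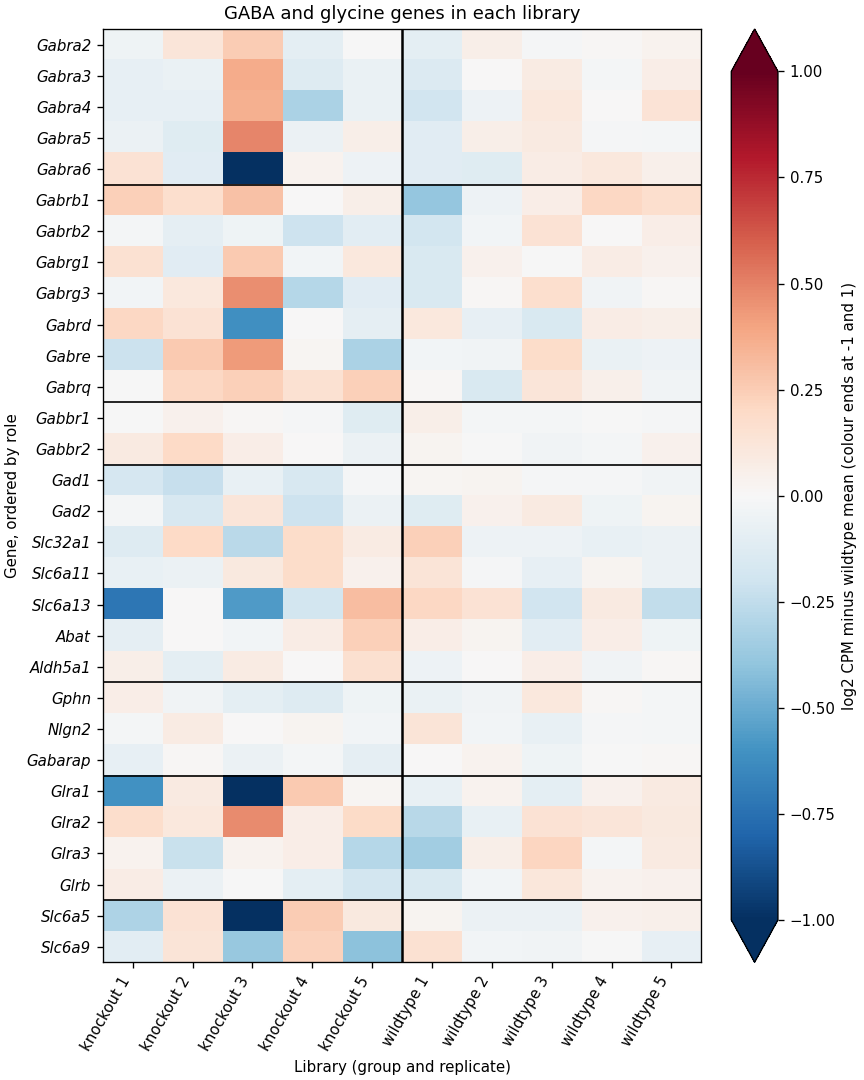
Log2 CPM minus the wildtype mean for each of the 30 genes (rows, ordered by role) in each library (columns, knockout left of the black line), with the colour scale ending at -1 and 1. The column of knockout replicate 3 holds the deepest blues, in Gabra6, Glra1 and Slc6a5, beside reds in the other alpha subunits, and no other column departs as far.

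Sequencing depth moved with some of the genes. The 3 deeper libraries were above all 7 others in Slc32a1, Nlgn2 and Slc6a9 and below all 7 in Gabra4, Gabrg1 and Gad2, where 5.26% of all tested genes were above and 4.83% below. These libraries hold 2 of 5 knockout brains and 1 of 5 wildtype brains, so depth and genotype were unbalanced. With depth class as a term no gene of the 30 passed at an adjusted p under 0.05, and 5 had an unadjusted p under 0.05, against 2 without the term. Of the 5, Gabrb1, Gabrg1 and Glra2 were higher and Gad1 and Slc6a9 lower, where 7.17% of all tested genes were higher and 8.65% lower in that fit. The smallest p was that of Glra2, at 0.00363 (edgeR adjusted p 0.101).

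Levels can be compared between genes only per length, so CPM was divided by the kilobases of annotated exon, a length that takes in every annotated transcript and so lowers genes with long alternative ends. On that scale Gabbr1 was highest, at 101 CPM per kilobase in knockout and 102 in wildtype brains, and Glra3 lowest, at 0.667 in knockout and 0.706 in wildtype brains. Among the alpha subunits the order in both groups was Gabra6, Gabra3, Gabra4, Gabra5 and Gabra2, with 52.9 CPM per kilobase of Gabra6 in knockout (66.0 without replicate 3) and 65.8 in wildtype brains, and 10.2 of Gabra2 in knockout and 9.84 in wildtype brains. Gad1 was at 62.4 CPM per kilobase in knockout and 68.2 in wildtype brains, and Gad2 at 50.8 in knockout and 53.1 in wildtype brains. The beta glycine receptor subunit Glrb, at 50.6 CPM per kilobase in knockout and 52.5 in wildtype brains, was well above all 3 alpha subunits, of which the highest was Glra1 at 6.77 in knockout (7.86 without replicate 3) and 8.01 in wildtype brains. No test was made of these orders.

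**Figure D5:**
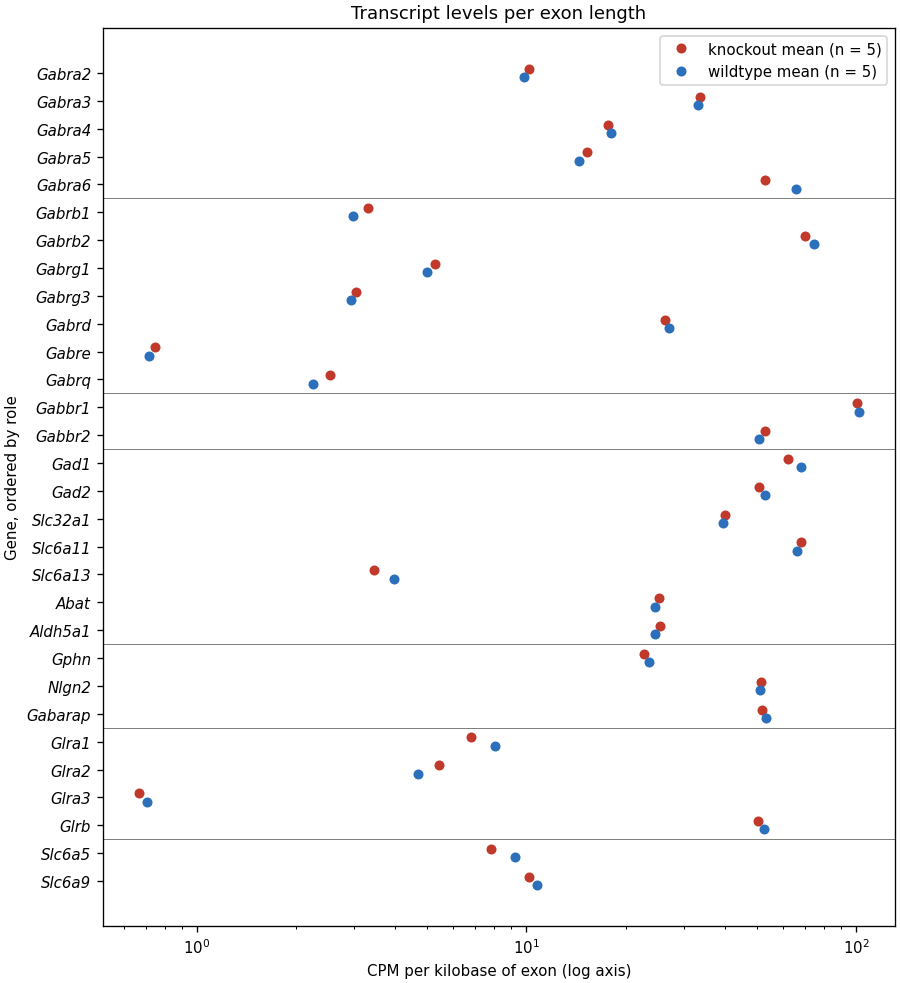
Mean CPM per kilobase of exon on a log axis for each gene, ordered by role, in knockout (red) and wildtype (blue) brains. The levels run from 0.667 for Glra3 to 102 for Gabbr1, and the widest gap on this axis, in Gabra6, is 52.9 in knockout against 65.8 in wildtype brains, where the knockout mean without replicate 3 is 66.0.

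Of 53 other genes of GABA and glycine handling, among them further receptor subunits, chloride and amino acid transporters, gephyrin partners and enzymes of glycine metabolism, 44 were tested. At an adjusted p under 0.05, 1 was lower and none higher, where 0.964% of all tested genes were lower and 0.213% higher. The gene was Slc38a2, a carrier of glutamine and other neutral amino acids, at 198 ± 10.8 CPM in knockout and 244 ± 15.7 CPM in wildtype brains (SD, n = 5 each). Its log2 fold change was -0.30 (edgeR adjusted p 0.00891). The median log2 fold change of the 44 was 0.018, beside 0.0042 for all tested genes. At an unadjusted p under 0.05 there were 1 higher and 3 lower of the 44, where 6.74% of all tested genes were higher and 8.03% lower. The next smallest p-values were those of Slc12a2, the chloride importer NKCC1, at -0.12 on the log2 scale (edgeR adjusted p 0.272), and of Trak2, a motor adaptor, at -0.094 (edgeR adjusted p 0.323).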

How the data were processed

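Counts per Ensembl gene and library were deposited by the authors in a single table, 1 column per brain. The submitters' processing notes name TopHat2 2.0.6, HTSeq, edgeR and limma. Per the labels' protocols, polyadenylated RNA was sequenced with 16 cycles of PCR. Genome build and strandedness of counting are not given in the sources used here. A further 10 columns of library values with lost decimal points, and the authors' own 2 comparison columns, were not used.

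From the counts, low genes were removed with filterByExpr (count of at least 10, total of at least 15), libraries were scaled by TMM, and genotype was tested by edgeR 4.0.16 in R 4.3.3 with an adjusted p threshold of 0.05. SE and 95% intervals came from the F statistic. Levels are CPM scaled by TMM. Exon lengths came from GENCODE annotation by gene ID. Where a marker symbol had several rows, the row with most counts was used. Each library is labelled as a brain, and p-values measure the spread between these libraries. No pair of replicates agreed within counting error (chi-square of 1.29 to 12.8 per degree of freedom). The common biological coefficient of variation was 0.071. Intervals on counts cover counting error only.

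The members and lists were chosen with earlier results of these data known. Values in every library are given for members with an adjusted or unadjusted p under 0.05, members whose groups do not overlap, Gabra6 and Gabrd, the 2 members with the highest mean CPM in each role, and members whose fold change moves by over 1.5 times without 1 library; the other members get means or ranges. Other genes are named only from the lists, as defining markers or by the smallest p. Per-library values of Slc32a1 and Slc6a13, and the Dlx, Sp and Hox subsets, were chosen after values were seen. Alternatives were scaling by DESeq2 size factors or the upper quartile, keeping all genes or those with 1 CPM or more in 5 libraries, a block for the replicate number, the Wald test of DESeq2 1.42.0, limma-voom (limma 3.58.1), a term for depth class, the 7 shallower libraries alone, and leaving out each library. On simulated counts for this comparison over 14526 genes, edgeR called 91 of 100 genes simulated with a 1.5-fold change, 100 of 100 with a 2-fold change, and 14 of 14326 with none. Each gene was drawn with the spread typical of its level, and no library was made to stand apart as knockout replicate 3 did. These shares therefore do not carry over to genes with a wider spread, such as Gabra6, Slc6a5 and Glra1. Changes under 1.5-fold were not simulated.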

Additional observations from a re-analysis of the deposited data

Results flagged for a closer look

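In 7 of 60 groups of 5 libraries, 1 library lay far from its nearest neighbour relative to the range of its group, where chance flags about 1 in 20 groups. Of the 7, 4 were in knockout replicate 3. There Gabra6 was at 1.58 CPM (nearest knockout 151 CPM), Gabra3 at 168 CPM (nearest 125 CPM), Gabra5 at 60.2 CPM (nearest 44.6 CPM) and Glra2 at 20.4 CPM (nearest 16.8 CPM). In wildtype replicate 1, Gabbr1 was at 826 CPM (nearest wildtype 791 CPM) and Slc32a1 at 130.0 CPM (nearest 107 CPM). In wildtype replicate 3, Gabre was at 3.87 CPM (nearest 3.32 CPM).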

How the results depend on the processing

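None of the 30 genes passed under any of the 9 other settings or with any of the 10 libraries left out, and the lowest adjusted p was 0.0821, for Gad1 without knockout replicate 5. The number of genes called over the whole table, 171, was 90 with the replicate number as a block, 261 by the Wald test of DESeq2 and 31 in the 7 shallower libraries, where fewer libraries were used. The cause of the other shifts was not tested. With 1 library left out it ran from 76 without wildtype replicate 4 to 341 without knockout replicate 3. Same-numbered brains had correlations of -0.14 to 0.089 in their deviations from the group means, 2 of 5 knockouts correlated best with its own number, and the block left the count of members called at 0. Signs changed only in genes that were not called. With upper-quartile scaling Gabbr1 was 0.0017. In the 7 shallower libraries Gabra4 was 0.035, Gabre -0.012 and Slc32a1 -0.038. With depth class as a term Gabra4 was 0.023, Slc32a1 -0.040, Nlgn2 -0.011 and Glra3 0.016. With 1 library left out, log2 fold changes that crossed 0 ran from -0.42 to 0.0043 for Gabra6, -0.099 to 0.064 for Gabrd, -0.34 to 0.078 for Slc6a5, -0.32 to 0.030 for Glra1, -0.16 to 0.0064 for Slc6a9, -0.082 to 0.048 for Gabra3, -0.14 to 0.040 for Gabra4, -0.044 to 0.11 for Gabra5, -0.063 to 0.13 for Gabrg3, -0.15 to 0.011 for Glra3, -0.024 to 0.094 for Slc32a1, -0.011 to 0.046 for Nlgn2, -0.030 to 0.0080 for Gabbr1 and -0.013 to 0.072 for Abat. The cause of these changes was not tested, other than that Gabra6, Gabrd, Slc6a5, Glra1 and Gabra5 crossed 0 only without knockout replicate 3. Gabre had under 10 CPM and a 95% interval of -0.22 to 0.40, which passed a 1.25-fold change. Glra3, also under 10 CPM, had an interval of -0.31 to 0.22, inside that bound. Gabrb1, with 45.6 CPM in knockout and 41.3 CPM in wildtype brains, passed it, with an interval of -0.062 to 0.36. The part of depth in these widths was not tested.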
